A study of Mus musculus with 15 samples.

Results

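Malat1, Neat1, Miat, Snhg11 and Pvt1 are long noncoding RNAs that are held mostly in the cell nucleus. They were chosen by symbol and not by a cut on their values, though earlier results of these data were known. They are 5 of the 31017 genes counted in each of 15 RNA immunoprecipitation (RIP) libraries from mice. The series asked what changes with a dominant mutation of Dnmt1, the enzyme that maintains DNA methylation, and the labels give genotypes as Het and Hom (mutant) and WT. The labels name neither the Dnmt1 allele nor the age or sex of the animals.

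For the fibroblast Dnmt1 RIP, lines grown from tails were fixed in formaldehyde and pulled down with an anti-Dnmt1 antibody, with 2 Het, 2 Hom and 2 WT libraries. For the m5C RIP, messenger RNA was pulled down with an antibody to 5-methylcytosine (m5C), a methylated form of the base C. The m5C RIP has 1 Het, 1 Hom and 1 WT library from cortex, and 1 Het, 1 Hom and 2 WT libraries from the fibroblasts. Each tissue has 1 library titled input, whose antibody label names IgG and whose genotype the labels do not give. The lines came from littermates of the same sex. Whether the libraries of 1 group are from separate cultures is not stated, and the p-values then cover the spread between libraries alone, which may be technical.

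Malat1 is one of the most abundant nuclear RNAs and gathers in nuclear speckles, bodies rich in splicing factors. Its neighbour Neat1 is the scaffold of paraspeckles, bodies that hold RNA-binding proteins such as Nono and Sfpq, and is low in most neurons. Miat, also called Gomafu, is a neuronal RNA that binds splicing factors through repeats. Snhg11 is named as a host gene of small nucleolar RNAs and is used as a neuron marker in brain tissue. Pvt1 lies beside Myc and is studied mainly in dividing and tumour cells. The last bases of Malat1 and of the long Neat1 transcript are known to be encoded in the genome and to fold into a triple helix in place of a polyA tail. The m5C RIP here began from RNA held on oligo-dT beads.

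The sequences below are shown because they carry these known features: the T-rich and A-rich stretches at the 3′ end of Malat1 and Neat1, and the repeat of Miat. All are from mm10 with the GENCODE M21 annotation, written 5′ to 3′ on the transcript strand (the minus strand) with T for U. Malat1 is a long intergenic noncoding RNA on chromosome 19, from 5795690 to 5802672, and its stretch lies within its single exon at chr19:5795982-5796065. Neat1 is annotated in the same class on the same chromosome, from 5824708 to 5845478, and its stretch is the last 90 bases of its single exon, at chr19:5824708-5824797. Capitals mark the 3 runs of 10 or more bases that the last 400 bases of Malat1 and the last 100 bases of Neat1 share, which are 13, 16 and 11 bases long.
Malat1: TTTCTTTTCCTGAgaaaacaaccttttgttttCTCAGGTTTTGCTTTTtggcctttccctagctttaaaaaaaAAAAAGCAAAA
Neat1: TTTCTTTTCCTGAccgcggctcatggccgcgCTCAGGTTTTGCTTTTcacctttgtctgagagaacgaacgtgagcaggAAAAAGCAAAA

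The runs stand in the same order in both RNAs. Among the longest transcripts of 13374 annotated long noncoding genes, TTTCTTTTCCTGA was in 5 (0.0374%), AAAAAGCAAAA in 67 (0.501%) and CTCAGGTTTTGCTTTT in 2 (0.0150%), which were Malat1 and Neat1. Read on the opposite strand, Malat1 held AAAAAGCAAAA 1 more time and Neat1 held none of the runs. Snhg11, which GENCODE M21 annotates as protein coding, held 1 copy of AAAAAGCAAAA, and Miat and Pvt1 held none of the 3 runs on either strand.

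Miat is a long intergenic noncoding RNA on chromosome 5, from 112213228 to 112229395. Both stretches below lie in its last exon, exon 7 of 7, at chr5:112217311-112217358 and chr5:112216754-112216810, and capitals mark TACTAAC.
Miat, first: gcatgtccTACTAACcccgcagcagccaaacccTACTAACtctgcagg
Miat, second: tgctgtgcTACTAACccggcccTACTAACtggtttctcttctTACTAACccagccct

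The longest Miat transcript held 6 copies of TACTAAC and none on the opposite strand. Of the 13374 long noncoding genes, 613 (4.58%) held it at least 1 time, and 2 genes, Miat among them, reached 6 copies. The median length of these transcripts was 1190.5 bases, against 9163 bases for Miat, and 18.1% of the 210 genes of 5 kb or longer held it. Neat1 held 1 copy, and Malat1, Snhg11 and Pvt1 held none. Snhg11 is on the plus strand of chromosome 2, from 158375638 to 158386145. Pvt1 is on the plus strand of chromosome 15, from 62037986 to 62378096.

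Depth and content differed between libraries before any comparison. Counts in genes ranged from 217173 to 4913482, with 228852 in the fibroblast input, where 6006 genes had a count. The genes Lars2, Gm42418, Gm26917 and Gm10800 held 63.5% of counts in Dnmt1 RIP Hom library 1 and 58.4% in the fibroblast input, against 4.01 to 26.5% elsewhere. Levels are CPM of all gene counts unless the total is said to leave out these 4 genes. The fibroblast m5C WT library 1 had at least as many counts as the Hom library in each of the 31017 genes, and equal counts in 7163 of the 19511 genes detected in Hom, so the independence of these libraries is in doubt. Calls of members in fits that use WT library 1 are given with and without it. Without it the m5C genotype fits called 10 (Het) and 17 (Hom) genes and the m5C RIP over input called 2 genes by edgeR, with 0 members in each, as many members as with it.

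Several fibroblast libraries went against their label. With the 4 genes left out of the total, 10 neuron markers (Snap25, Syt1, Map2 and others) summed to 7750 to 7967 CPM in the cortex m5C RIP and 6816 CPM in the cortex input. The same sum was 2990 to 4788 CPM in the Dnmt1 RIP, 478 to 1036 CPM in the fibroblast m5C RIP and 2755 CPM in the fibroblast input, with Rbfox3 at 0 in the fibroblast input and no neuron marker at 0 in another library. The 10 fibroblast markers (Col1a1, Col1a2 and others) summed to 22503 and 8332 CPM in the Dnmt1 RIP Het libraries, 1281 and 2743 CPM in Hom and 642 and 2205 CPM in WT. They were 621 to 709 CPM in the 4 cortex libraries and 25765 to 32259 CPM in the fibroblast m5C RIP. The part of these cells or RNAs in the results below was not tested, and in bulk RNA fewer cells of a type and less RNA per cell cannot be told apart.

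**Figure D1:**
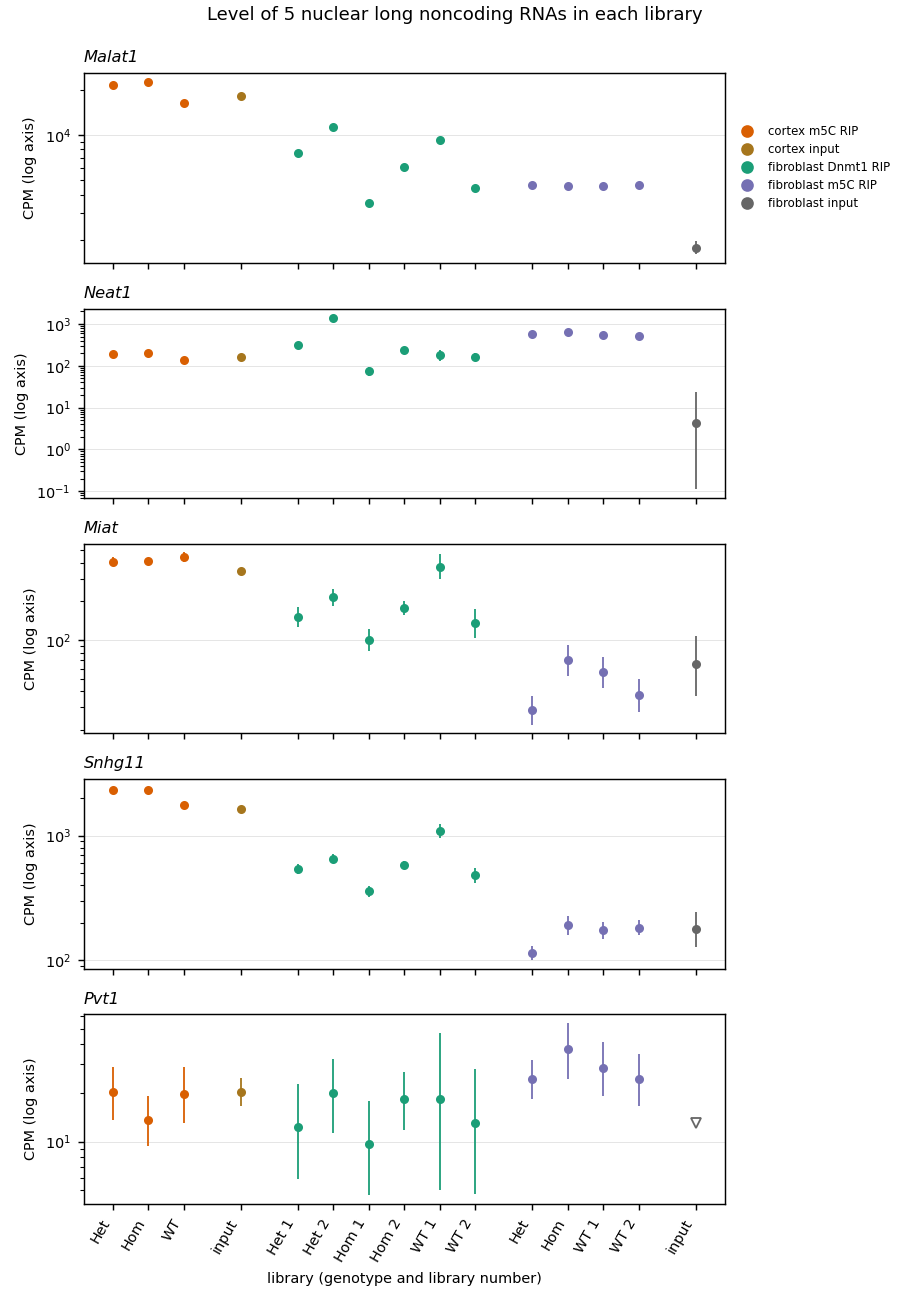
Level of each RNA in CPM (log axis, 1 panel per gene) in all 15 libraries, with colours for tissue and antibody and bars for the 95% Poisson interval of the count; the open triangle is the 13.1 CPM that 3 counts stand for where Pvt1 had 0. Malat1, Miat and Snhg11 sit higher in the 3 cortex m5C libraries than in the 4 fibroblast m5C libraries, and Neat1 sits lower.

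The m5C RIP of cortex differed from that of fibroblasts in all 5 RNAs. Malat1, Miat and Snhg11 were higher in cortex, by 3.81, 8.41 and 11.8 times in the fit, and Neat1 was 3.70 times lower. Pvt1 was lower by a margin that several settings did not keep. In this comparison 63.9% of the 14193 genes tested passed an adjusted p of 0.05 (edgeR's quasi-likelihood test with tissue and genotype, Benjamini-Hochberg over all genes), with 30.9% higher and 33% lower in cortex, so 5 of 5 members stand beside a background of most genes.

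Malat1 had 21462, 22394 and 16221 CPM in the cortex m5C libraries from Het, Hom and WT mice. The fibroblast m5C libraries had 4671 (Het), 4552 (Hom), 4536 and 4641 CPM (WT), a spread of 66.3 CPM around a mean of 4600 (SD, n = 4). The tissues did not overlap, and Malat1 ranked second of all genes in each of the 4 cortex libraries and between 11 and 14 in the fibroblast m5C RIP. The fitted difference was 1.93 ± 0.21 on the log2 scale (SE, adjusted p = 1.11e-06 by edgeR), and 1.96 without fibroblast m5C WT library 1.

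Neat1 went the other way. It had 194, 203 and 141 CPM in the cortex m5C libraries from Het, Hom and WT mice, against 576 (Het), 657 (Hom), 541 and 519 CPM (WT) in the fibroblast m5C RIP. Each fibroblast value lay above each cortex value, and the fitted difference was -1.89 ± 0.19 (SE, adjusted p = 5.08e-07 by edgeR), or -1.85 without WT library 1. Markers of macrophages and microglia also differed: 8 genes summed to 132 to 155 CPM in the cortex m5C RIP and 2601 to 4394 CPM in the fibroblast m5C RIP (4 genes left out), and 8 of 8 passed as lower in cortex. Their part in the Neat1 result was not tested.

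Within a library the ratio of Malat1 to Neat1 counts needs no scaling between libraries. It was 111, 110 and 115 in the cortex m5C libraries from Het, Hom and WT mice and 112 in the cortex input. In the fibroblast m5C RIP it was 8.11 (Het), 6.93 (Hom), 8.38 and 8.94 (WT). Its range in the 4 cortex libraries thus lay above its range in the 4 fibroblast m5C libraries. It was 8.18 to 51.9 in the fibroblast Dnmt1 RIP, and 406 in the fibroblast input, from 1 Neat1 count.

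**Figure D2:**
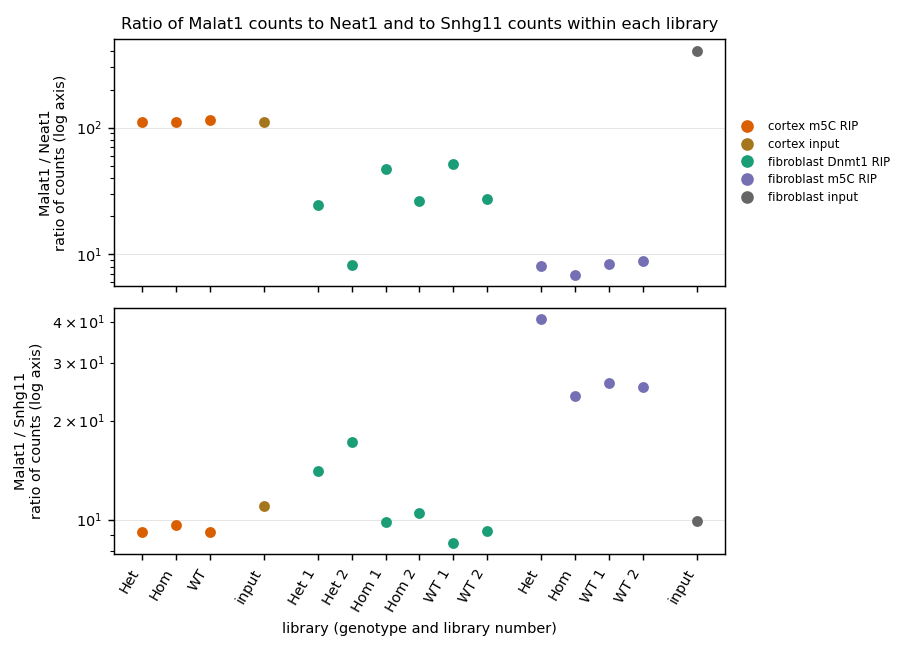
Ratio of Malat1 counts to Neat1 counts (upper panel) and to Snhg11 counts (lower panel) in each library, on log axes, with colours for tissue and antibody. The Malat1 to Neat1 ratio lies between 110 and 115 in the 4 cortex libraries and between 6.93 and 8.94 in the fibroblast m5C RIP, and 5 of the 6 Dnmt1 RIP libraries, at 24.6 to 51.9, lie between them, with Het library 2 at 8.18; the fibroblast input ratio of 406 rests on 1 Neat1 count.

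Miat had 408, 413 and 443 CPM in the cortex m5C libraries from Het, Hom and WT mice. In the fibroblast m5C RIP it had 28.7 CPM in Het, 70.3 CPM in Hom and 56.4 and 37.5 CPM in WT, from 46 to 62 counts a library. The tissues did not overlap, and the difference was 3.07 ± 0.23 (SE, adjusted p = 3.24e-08 by edgeR), or 3.19 without WT library 1.

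Snhg11 had 2336, 2328 and 1766 CPM in the cortex m5C libraries from Het, Hom and WT mice, against 115 (Het), 192 (Hom), 174 and 183 CPM (WT) in the fibroblast m5C RIP. The difference of 3.56 ± 0.22 (SE, adjusted p = 7.06e-09 by edgeR) lay above that of 99% of the genes tested, and it was 3.60 without WT library 1. The 10 neuron markers all passed as higher in cortex in this fit, with a median difference of 3.29 beside -0.06 over all genes tested.

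Pvt1 was low in all libraries. It had 20.2, 13.7 and 19.8 CPM in the cortex m5C libraries from Het, Hom and WT mice, from 26 to 33 counts. In the fibroblast m5C RIP it had 24.5 CPM in Het, 37.2 CPM in Hom and 28.7 and 24.5 CPM in WT, from 27 to 53 counts. The tissues did not overlap and the fitted difference was -0.82 ± 0.30 (SE, adjusted p = 0.0247 by edgeR), or -0.80 without WT library 1 (adjusted p = 0.0336). It missed the threshold with the Hom counts taken off WT library 1 (-0.63, adjusted p = 0.314 by edgeR), with total counts for scaling (adjusted p = 0.0588), with no filter on low counts (adjusted p = 0.0619), with DESeq2 (adjusted p = 0.145), and without the fibroblast m5C Hom library, the cortex m5C WT library or the cortex m5C Hom library (edgeR adjusted p = 0.242, 0.0535 and 0.228).

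Per kilobase of exon, with the 4 genes left out of the total, levels can be set beside each other across the RNAs. In the cortex m5C RIP Malat1 was at 2474 to 3357 CPM per kb, Snhg11 at 221 to 286, Miat at 45.9 to 50.8, Neat1 at 7.24 to 10.3 and Pvt1 at 2.05 to 3.02, with no overlap between neighbours. In the fibroblast m5C RIP Malat1 was again first, at 690 to 789 CPM per kb. Neat1 came second there at 26.3 to 33.5, above Snhg11 at 14.0 to 24.9 and Miat at 3.21 to 8.0, and Pvt1 at 3.65 to 5.63 overlapped Miat. Exons of all transcripts of a gene were merged for its length, so the per-kb level of a gene with several transcripts is a low estimate.

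Other nuclear or chromatin long noncoding RNAs, of which 11 of 22 listed could be tested, gave 9 higher and 0 lower in cortex than in fibroblast m5C RIP (median difference 1.96). The shares over all genes tested were 30.9% higher and 33% lower. The imprinted RNAs Meg3 and Kcnq1ot1 were higher in cortex by 2.72 ± 0.20 and 2.60 ± 0.20 (log2, SE, adjusted p = 3.16e-08 and 4.16e-08 by edgeR), and Tug1 differed by -0.35 ± 0.18 (adjusted p = 0.0998 by edgeR). Of 10 listed host genes of small nucleolar RNAs and cytoplasmic noncoding RNAs, 4 could be tested and all 4 were lower in cortex, H19 by -7.23 ± 0.58 and Snhg12 by -1.82 ± 0.32 (edgeR adjusted p = 5.77e-08 and 0.000181). Snhg11, the host gene among the members, went the opposite way.

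The protein partners of these RNAs gave mixed directions. Over all genes tested, 30.9% were higher and 33% lower in cortex, so mixed calls were also the rule among genes at large. Of 15 paraspeckle protein genes 4 were higher and 5 lower in the cortex m5C RIP, with a median of -0.20. Hnrnpa1 was lower by -1.04 ± 0.20 and Hnrnpk by -0.82 ± 0.17, and Sfpq gave -0.19 ± 0.19 (edgeR adjusted p = 0.000297, 0.000843 and 0.384). Of 15 nuclear speckle protein genes 3 were higher and 6 lower (median -0.16), with Srrm2 at 0.92 ± 0.19 and Son at 0.64 ± 0.17 both higher, and Srsf1 lower at -0.44 ± 0.18 (edgeR adjusted p = 0.000687, 0.00419 and 0.0430). Of the 4 splicing factor genes whose proteins are known to bind Miat, Celf3, a brain factor, and Qk were higher by 2.93 ± 0.24 and 1.41 ± 0.18, and Sf1 and Srsf1 were lower, Sf1 by -1.23 ± 0.18 (edgeR adjusted p = 6.44e-08, 7.47e-06 and 2.49e-05).

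Neighbours on the chromosome did not all follow. Ltbp3 and Frmd8, which lie near Malat1 and Neat1, were lower in cortex by -2.25 ± 0.22 and -1.63 ± 0.26 (edgeR adjusted p = 4.06e-07 and 7.01e-05). Both have the sign of Neat1 and not of Malat1. Myc, the neighbour of Pvt1, was lower in cortex by -3.84 ± 0.33, and Ralgapb, the neighbour of Snhg11, was higher by 1.69 ± 0.18 (edgeR adjusted p = 1.13e-07 and 1.52e-06).

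The second comparison set the Dnmt1 RIP libraries labelled fibroblast against the m5C RIP libraries with the same label. Miat and Snhg11 were higher in the Dnmt1 RIP by 3.20 and 3.01 times in the fit, Neat1 and Pvt1 were lower by 3.17 and 2.37 times, and Malat1 did not pass. With 4 of 5 members called, 40.2% of the 17124 genes tested were called as well, 17.5% higher and 22.6% lower in the Dnmt1 RIP, and the median gene lay at 0.22. The antibody, the fixation of the cells and the selection of messenger RNA all differ between these assays. So do the neuron and fibroblast marker sums given above, whose ranges did not overlap, and these differences cannot be told apart.

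Malat1 had 7630 and 11274 CPM in the Dnmt1 RIP Het libraries, 3506 and 6120 CPM in Hom and 9320 and 4435 CPM in WT. The 4 fibroblast m5C libraries lay inside this range, and the fitted difference was 0.18 ± 0.47 (SE, adjusted p = 0.775 by edgeR). Without WT library 1 it was 0.23. The low value of Hom library 1 became 9594 CPM when the 4 dominant genes were left out of the total. On that scale the groups no longer overlapped, with 5943 to 11956 CPM in the 6 Dnmt1 RIP libraries against 4818 to 5512 CPM in the 4 m5C libraries. Malat1 still passed in none of the other settings, the fit without the 4 genes among them. The differences there were 0.08 to 0.57 (adjusted p = 0.267 to 0.927 by edgeR or DESeq2).

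Neat1 was uneven in the Dnmt1 RIP. It had 311 and 1378 CPM in the Het libraries, 73.8 and 234 CPM in Hom and 180 and 162 CPM in WT, so Het library 2 lay above all 4 fibroblast m5C libraries and the other 5 lay below them. The fitted difference was -1.66 ± 0.46 (SE, adjusted p = 0.00928 by edgeR) and -1.84 ± 0.30 without Het library 2. It missed the threshold without the fibroblast m5C Hom library (adjusted p = 0.0911 by edgeR), and gave -1.55 (adjusted p = 0.0237) without WT library 1.

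Miat had 151 and 216 CPM in the Dnmt1 RIP Het libraries, 100.1 and 178 CPM in Hom and 373 and 136 CPM in WT. Each value lay above the highest of the fibroblast m5C RIP, and the difference was 1.68 ± 0.31 (SE, adjusted p = 0.000610 by edgeR). Snhg11 had 542 and 655 CPM in the Dnmt1 RIP Het libraries, 357 and 584 CPM in Hom and 1096 and 479 CPM in WT, again with no overlap with the m5C RIP. Its difference was 1.59 ± 0.32 (SE, adjusted p = 0.00103 by edgeR). Without fibroblast m5C WT library 1 the values were 1.79 for Miat and 1.61 for Snhg11, and both remained past the threshold.

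Markers of several brain cell types moved with both. All 10 neuron markers passed as higher in the Dnmt1 RIP, with a median of 1.63, and 8 of 9 fibroblast and 8 of 8 macrophage markers tested passed as lower. Set on the mean of the cortex m5C RIP as 100% (4 genes left out of the total), the neuron marker sum was 38.1 to 60.9% in the Dnmt1 RIP, Miat 41.1 to 94.5% and Snhg11 28.5 to 54.7%. In the fibroblast m5C RIP the marker sum was 6.08 to 13.2%, Miat 6.73 to 16.8% and Snhg11 5.30 to 9.40%. In the fibroblast input the marker sum was 35.1%, Miat 35.5% and Snhg11 19.1%. All 5 oligodendrocyte markers also passed as higher in the Dnmt1 RIP (median 1.91), and their sum was 31.2 to 56.4% in the Dnmt1 RIP, 5.47 to 10.2% in the fibroblast m5C RIP and 29.5% in the fibroblast input. Of 5 astrocyte markers 4 were higher and 1 lower (median 1.34), with sums of 37.6 to 68.2%, 18.2 to 21.2% and 23.3% in the same order. The part of these cells in the Miat and Snhg11 results was not tested. Dnmt1 RIP WT library 1 was highest among the 6 for the neuron, oligodendrocyte and astrocyte marker sums alike, and also for Miat and for Snhg11.

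**Figure D3:**
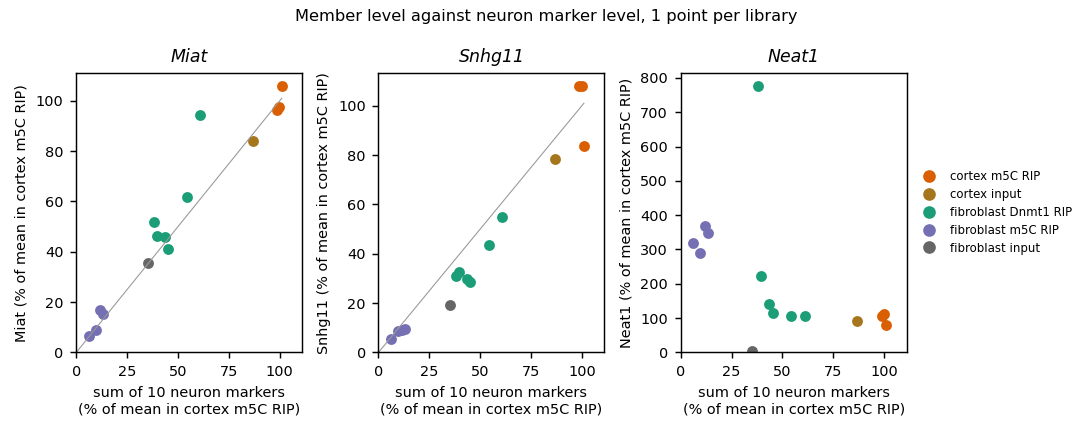
Miat, Snhg11 and Neat1 against the summed level of 10 neuron markers in 15 libraries, each as a percent of the mean of the cortex m5C RIP; the grey line marks equal percents. Miat and Snhg11 are lowest in the fibroblast m5C RIP and highest in the cortex m5C RIP. Miat lies well above the line in Dnmt1 RIP WT library 1 (94.5% against 60.9% for the markers). Snhg11 lies below it in all Dnmt1 RIP libraries and in the fibroblast input (19.1% against 35.1% there). Neat1 lies highest in Dnmt1 RIP Het library 2 (775%) and in the fibroblast m5C RIP (290 to 369%).

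Neat1 did not keep to that share. Malat1 lay near Snhg11 in the Dnmt1 RIP and in the fibroblast input, and above Miat and Snhg11 in the fibroblast m5C RIP. Neat1 stood at 107 to 775% of its cortex m5C mean in the Dnmt1 RIP and 290 to 369% in the fibroblast m5C RIP. Malat1 stood at 28.2 to 56.8% in the Dnmt1 RIP, 22.9 to 26.2% in the fibroblast m5C RIP and 20.3% in the fibroblast input. The Malat1 to Snhg11 count ratio was 9.18 to 9.62 in the cortex m5C RIP. It was 8.50 to 17.2 in the Dnmt1 RIP, with both Het libraries highest, and 23.8 to 40.8 in the fibroblast m5C RIP.

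Pvt1 had 12.3 and 19.9 CPM in the Dnmt1 RIP Het libraries, 9.71 and 18.3 CPM in Hom and 18.4 and 13.0 CPM in WT, from 4 to 25 counts. These values lay below the 4 fibroblast m5C libraries, although with the 4 genes left out of the total the ranges overlapped (16.7 to 26.6 and 25.5 to 39.4 CPM). The difference was -1.24 ± 0.31 (SE, adjusted p = 0.00466 by edgeR), or -1.19 without WT library 1 (adjusted p = 0.0160). Scaled by total counts, both Neat1 and Pvt1 missed the threshold (-1.26 and -0.91, edgeR adjusted p = 0.0840 and 0.113), a scaling that moved the median gene to 0.58 and gave 3830 genes higher and 2096 lower, against 3004 and 3878 in the reported fit.

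Among the other nuclear or chromatin long noncoding RNAs, 8 were higher and 1 lower of 13 tested in the Dnmt1 RIP than in the fibroblast m5C RIP. This and the lists below stand beside 17.5% higher and 22.6% lower over all genes tested. Meg3 and Kcnq1ot1 were higher by 1.19 ± 0.41 and 1.46 ± 0.27, and Tug1 was lower by -1.16 ± 0.28 (edgeR adjusted p = 0.0318, 0.000594 and 0.00380). Of the paraspeckle protein genes 1 was higher and 6 lower of 15, of the speckle protein genes 0 and 6 of 15, and of the Miat-binding factors 1 and 1 of 4. All 4 small nucleolar RNA host and cytoplasmic RNAs tested were lower, and of the 5 neighbouring genes 1 was higher and 4 lower. Ralgapb was the higher one, at 0.86 ± 0.26, and Myc and Ltbp3 were lower at -2.05 ± 0.29 and -2.28 ± 0.39 (edgeR adjusted p = 0.0157, 9.09e-05 and 0.000341).

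The comparisons of genotypes gave no member past the threshold. In the Dnmt1 RIP, 0 of 5 were called for Het against WT, where edgeR called 0% of 13589 genes (868 at an unadjusted p under 0.05) and DESeq2 called 31. Neat1 had the largest difference of the 5, 2.23 ± 0.60 (SE, unadjusted p = 0.00379, adjusted p = 0.732 by edgeR). Its values of 311 and 1378 CPM in Het did not overlap the 180 and 162 CPM in WT, and its p ranked 67 of 13589. Without Het library 2 the difference was 1.25, and without Het library 1 it was 2.87. DESeq2 gave 2.29 (adjusted p = 0.0161), and edgeR with no filter on low counts gave 2.38 (adjusted p = 0.00623, with 192 genes called).

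Fibroblast markers were high in both Het libraries, and macrophage markers in Het library 2, while Het library 1 lay below WT library 2 for the macrophage sum. The macrophage and microglia sum was 182 and 1871 CPM in Het against 166 and 428 CPM in WT, with C1qb and Aif1 at 0 in WT library 1, and the fibroblast sum was 22503 and 8332 CPM in Het against 642 and 2205 CPM in WT (4 genes left out). The highest Neat1 value and the highest macrophage sum were in the same library, Het library 2. The median difference was 2.27 over 9 fibroblast markers and 1.84 over 7 macrophage markers, with 0 called in either list. Their part in the Neat1 difference was not tested. The other members gave 0.58 ± 0.85 (Malat1), -0.32 ± 0.47 (Miat), -0.25 ± 0.53 (Snhg11) and 0.11 ± 0.73 (Pvt1), and their Het and WT values overlapped.

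For Hom against WT in the Dnmt1 RIP, 0 of 5 were called, as were 0% of 13589 genes by edgeR (309 at an unadjusted p under 0.05) and 0 by DESeq2. The differences ran from -0.31 ± 0.47 for Miat to 0.31 ± 0.73 for Pvt1, each smaller than its error. Malat1 had 3506 and 6120 CPM in Hom against 9320 and 4435 CPM in WT, and its fitted difference of 0.03 ± 0.84 became -0.52 with total counts for scaling. That setting moved the median gene to -0.38.

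In the m5C RIP with both tissues in 1 fit, 0 of 5 members were called for Het against WT, as were 0% of 14193 genes by edgeR (564 at an unadjusted p under 0.05) and 0 by DESeq2. Miat had the largest estimate, -0.43 ± 0.27, with 28.7 CPM in the fibroblast Het library against 56.4 and 37.5 CPM in WT, and 408 against 443 CPM in cortex. The other 4 lay between -0.24 and 0.16. For Hom against WT, 0 of 5 were called, as were 0% of 14193 genes by edgeR (122 at an unadjusted p under 0.05), while DESeq2 called 38, none of them a member. Neat1 had the largest estimate, 0.32 ± 0.21, with 657 CPM in the fibroblast Hom library against 541 and 519 CPM in WT, and 203 against 141 CPM in cortex. Without fibroblast m5C WT library 1 the estimates were -0.30 for Miat (Het) and 0.39 for Neat1 (Hom), neither past the threshold.

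**Figure D4:**
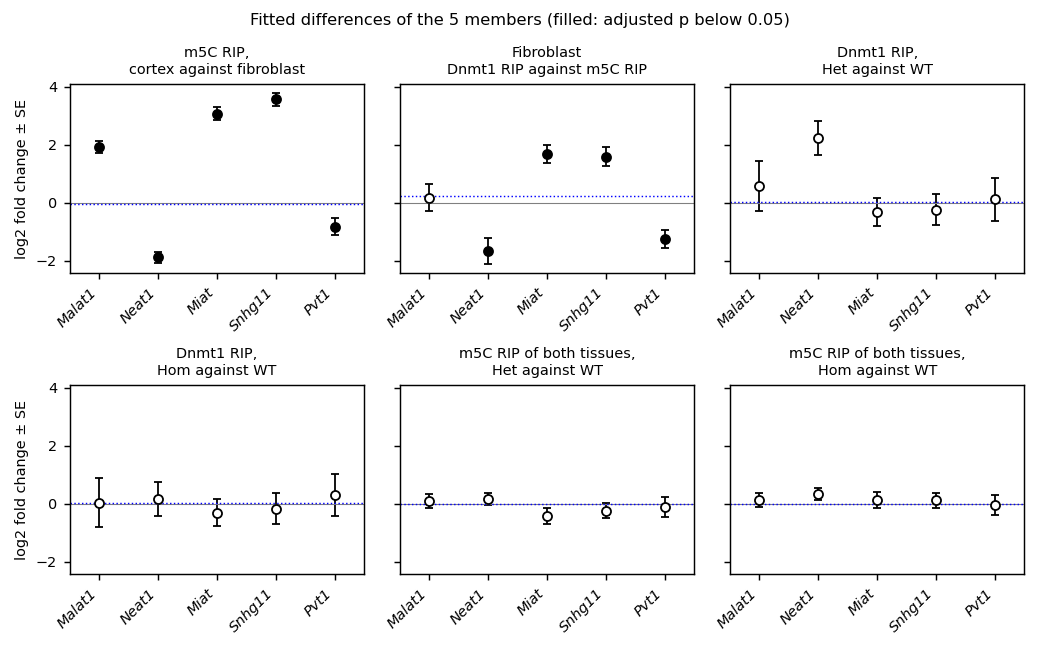
Fitted log2 fold change of each RNA in 6 comparisons, first group over second, with bars for SE, filled points where the adjusted p is below 0.05, and a dotted line at the median of all genes tested. All 5 RNAs are filled for tissue and 4 for antibody, and none is filled for genotype, where Neat1 in the Dnmt1 RIP (Het against WT) lies farthest from 0 at 2.23.

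Each tissue had a single input. In cortex, whose input was the deepest library, the m5C RIP mean was 1.08 times the input for Malat1 (95% interval of the input count 1.08 to 1.09), 1.08 times for Neat1 (1.01 to 1.16), 1.19 times for Miat (1.14 to 1.25), 1.28 times for Snhg11 (1.25 to 1.31) and 0.863 times for Pvt1 (0.710 to 1.06), with the 4 genes left out. These intervals cover counting error of 1 library and not the spread between libraries. Malat1 in the WT cortex m5C library, at 16221 CPM, lay below the 18096 CPM of the input.

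In the fibroblast input Malat1 had 406 counts (1774 CPM), Snhg11 41 (179 CPM), Miat 15 (65.5 CPM), Neat1 1 (4.37 CPM) and Pvt1 0, which allows up to 13.1 CPM. Over input, the Dnmt1 RIP gave 0.93 ± 1.24 for Malat1, 0.76 ± 0.68 for Snhg11 and 0.49 ± 0.60 for Miat, none called, while the median gene lay at 5.39 in this fit, the input having a count in 6006 of 31017 genes. Neat1 was the 1 member of 5 called, beside 4.99% of 16558 genes (3.31% higher), at 4.91 ± 1.18 (SE, adjusted p = 0.0403 by edgeR), which is less than the median gene. Higher and lower calls over all genes numbered 548 and 279, against 1277 and 58 with total counts and 454 and 352 with RLE factors. It missed the threshold in DESeq2 (adjusted p = 0.0585) and without either WT or either Hom library (edgeR adjusted p = 0.0595 to 0.0680). Without WT library 1, Hom library 1 or Hom library 2, edgeR called 0 genes in all, with 4382 to 4933 at an unadjusted p under 0.05. By direct ratio the mean of the Dnmt1 RIP was 44.0 times the input for Neat1, with an interval of 7.89 to 1736 from its single input count. Pvt1 in the Dnmt1 RIP, at 16.7 to 26.6 CPM with the 4 genes left out, lay under the 31.5 CPM that 3 input counts stand for on that scale, so no ratio is given.

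The m5C RIP over input in both tissues gave 0 of 5 members called, beside 0.0552% of 14501 genes by edgeR (8 genes, 787 at an unadjusted p under 0.05) and 166 by DESeq2. In fibroblasts the mean over input was 59.4 times for Neat1 (10.7 to 2348), 1.18 times for Malat1 (1.07 to 1.30), 0.422 times for Snhg11 (0.311 to 0.588) and 0.336 times for Miat (0.204 to 0.601). The difference of this ratio between tissues, cortex minus fibroblast, passed for 2 of 5 members, Neat1 and Pvt1, beside 34.9% of 14501 genes (5.83% higher and 29.1% lower). It was -6.35 ± 0.73 for Neat1 (adjusted p = 5.37e-05 by edgeR), close to the median gene at -6.27. For Pvt1, at 0 counts in the fibroblast input, the fitted value depends on the prior count and is no bound. Pvt1 lost the call with RLE factors, with DESeq2 and with the Hom counts taken off WT library 1 (adjusted p = 0.0579 by edgeR, 0.113 by DESeq2 and 0.146 by edgeR). Miat and Snhg11 gave 1.41 ± 0.60 and 1.11 ± 0.49, and Malat1 -0.68 ± 0.46 (edgeR adjusted p = 0.0792, 0.0888 and 0.244). Without fibroblast m5C WT library 1, 4 of 5 passed, Miat and Snhg11 being added (edgeR adjusted p = 0.0188 and 0.0312). Both also passed with RLE factors (edgeR adjusted p = 0.0459 and 0.0426) and with DESeq2 (adjusted p = 0.0370 and 0.0165), and Malat1 passed with total counts (edgeR adjusted p = 0.0407).

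By pattern over the 15 libraries, Miat was most like Faim2, Ina and Mapk8ip2, and Snhg11 like Ank2 and Camk2a, genes known from neurons (Pearson r of log2(CPM + 1) of 0.99 for each, among 11305 genes with a mean of at least 10 CPM). Malat1 was most like Napg, Zrsr1 and Zyg11b (0.97 to 0.98), Neat1 like Dapk3, Fis1 and Nagk (0.97), and Pvt1 like Ptpa, Rab12 and Por (0.99). Among the members r was 0.97 for Miat with Snhg11, 0.89 for Neat1 with Pvt1, 0.89 for Malat1 with Snhg11 and 0.33 for Malat1 with Neat1. These are descriptions over libraries that share tissues and depths.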

How the data were processed

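Gene counts deposited by the authors, 1 table of raw counts per library, were used as they stand. The submitters' processing notes name Trim Galore 0.4.1 for trimming, HISAT2 on mm10 for alignment and featureCounts for counting. They do not state other versions, the annotation or use of strand, and reads from opposite strands then cannot be told apart. In 6 tables there are 5 further entries, for reads not counted in genes, in the layout of a different counting program. These are the tables of all cortex libraries and of the fibroblast m5C Het and Hom libraries. Reads not aligned were 63.2 to 89.5% of all entries there. The fibroblast m5C WT and Dnmt1 RIP tables lack such entries, so layout and genotype cannot be told apart in the fibroblast m5C RIP. The further entries were left out of totals and tests, and genes held 3.79 to 10.1% of all entries in the 6 tables.

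Groups came from the titles. The main test was edgeR 4.0.16 under R 4.3.3 (filterByExpr with minimum count 10 and minimum total 15, TMM, glmQLFit, glmQLFTest, Benjamini-Hochberg over all genes tested, threshold 0.05). SE is the log2 fold change over the square root of F. Residual degrees of freedom were 3 to 6, and single-library groups were assumed to vary like the others. Intervals are 95% Poisson and cover counting error only. Alternatives were RLE factors, total counts, no filter, DESeq2 1.42.0, removal of 4 dominant genes, each library left out, a replicate block and, added after seeing the data, WT library 1 less the Hom counts. Tables and plots were made in Python 3.11.15 (matplotlib 3.10.9, SciPy 1.17.1, numpy 2.4.6, pandas 2.3.3). Genes named beside the members are the 3 most abundant of each list, the 3 most alike in pattern, and Celf3, Frmd8 and Myc, which were added after their values were seen. Of the genes this rule names, 2 are not reported here. The members and lists were chosen with earlier results of these data known. The fits were tested on simulated data.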

Additional observations from a re-analysis of the deposited data

Results flagged for a closer look

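With the 4 dominant genes left out of the totals, some members lay one way in all libraries of 1 tissue or assay and the opposite way in another under the same contrast. The fibroblast m5C WT mean holds library 1, which shares counts with Hom. For Malat1, Het against WT gave -0.0958 in the fibroblast m5C RIP and 0.376 in the cortex m5C RIP, a difference of -0.472, and Hom against WT gave -0.11 and 0.44, a difference of -0.55. For Miat, Hom against WT gave 0.462 in the fibroblast m5C RIP and -0.129 in the cortex m5C RIP, a difference of 0.59. For Snhg11, Het against WT gave -0.762 and 0.376 in the same order, a difference of -1.14. For Pvt1, Hom against WT gave 0.322 in the Dnmt1 RIP and 0.377 in the fibroblast m5C RIP against -0.559 in the cortex m5C RIP, differences of 0.881 and 0.936. None of these 6 differences was tested, and each rests on 1 or 2 libraries a side (log2 scale throughout). Not all hold on CPM of all gene counts. There Malat1 in the fibroblast m5C RIP had 4671 CPM in Het, above the 4536 and 4641 CPM in WT, and 4552 CPM in Hom, between the WT values. Pvt1 in the Dnmt1 RIP had 9.71 and 18.3 CPM in Hom against 18.4 and 13.0 CPM in WT, with the lower mean in Hom, so the opposite movement is lost for these differences of -0.472, -0.55 and 0.881.

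By the edgeR interaction, the m5C RIP over input differed between cortex and fibroblast for Neat1 by -6.35 and for Pvt1 by -8.97. Both rest on the fibroblast input, which held 1 count of Neat1 and 0 of Pvt1, and the median of all genes was -6.27 in that fit.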

How the results depend on the processing

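Members called stayed within 1.5 times of the reported count except as follows. Het against WT in the Dnmt1 RIP called 1 member with no filter on low counts and 1 with DESeq2 (Neat1 in both). Dnmt1 RIP against m5C RIP called 2 with total counts and 2 with WT library 1 less the Hom counts (Miat and Snhg11), where Neat1 gave an adjusted p of 0.0506 and Pvt1 of 0.0928 by edgeR. Dnmt1 RIP against input called 0 with DESeq2 and 0 to 1 with a library left out, where 0 to 850 genes were called in all (0 without WT library 1, Hom library 1 or Hom library 2). The m5C RIP against input called 0 to 2 with a library left out; the 2 were Neat1 and Pvt1 without the cortex input, where 5816 of 14286 genes were called, against 8 of 14501. Its difference between tissues called 1 with WT library 1 less the Hom counts, and 2 to 4 with a library left out. The cause of these changes was not tested.

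Signs turned for uncalled members only. With total counts, Hom against WT in the Dnmt1 RIP gave -0.52 for Malat1, -0.15 for Neat1 and -0.12 for Pvt1, Hom against WT in the m5C RIP gave 0.0165 for Pvt1, and m5C RIP against input gave 0.13 for Snhg11. With WT library 1 less the Hom counts, Het against WT in the m5C RIP gave -0.051 for Malat1 and 0.17 for Pvt1, and Hom against WT gave 0.25 for Pvt1. With a library left out, Het against WT in the Dnmt1 RIP ran from -0.69 to 0.31 for Miat and -0.52 to 0.22 for Snhg11. Hom against WT there ran from -0.22 to 0.41 for Malat1, -0.088 to 0.42 for Neat1, -0.70 to 0.31 for Miat and -0.46 to 0.28 for Snhg11. Het against WT in the m5C RIP ran from -0.11 to 0.14 for Malat1, -0.67 to 0.20 for Snhg11 and -0.33 to 0.21 for Pvt1. Hom against WT there ran from -0.065 to 0.34 for Malat1, -0.26 to 0.59 for Miat, -0.17 to 0.19 for Snhg11 and -0.59 to 0.41 for Pvt1. The m5C RIP against input ran from -1.22 to 0.17 for Miat, -0.81 to 0.27 for Snhg11 and -0.33 to 8.28 for Pvt1.

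The replicate number as a block in the Dnmt1 RIP called 0 members for either genotype (Neat1 in Het 2.07, adjusted p = 0.422 by edgeR); deviations of same-numbered libraries correlated at -0.00119, 0.209 and 0.06, so the numbers were not taken to pair them. Of 75 levels, 38 moved beyond their 95% interval when the 4 dominant genes were left out of the total. Depth limits Pvt1 in all Dnmt1 RIP libraries and all members but Malat1 in the fibroblast input.

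Over all genes, edgeR called 0 for Het against WT in the Dnmt1 RIP against 192 with no filter and 31 with DESeq2, and 0 for Hom against 13 with no filter and 2 with total counts. In the m5C RIP it called 0 for Het and 0 for Hom against 10 and 10 with no filter and, for Hom, 38 with DESeq2. With WT library 1 less the Hom counts, it called 5993 against 9075 between tissues, 4205 against 6882 between antibodies, 47 against 8 for m5C RIP over input and 614 against 5060 for its difference between tissues. Dnmt1 RIP over input gave 827 against 1944 with no filter, 1335 with total counts and 154 with DESeq2. The m5C RIP over input gave 8 against 37 with RLE factors, 2 with total counts, 211 with no filter and 166 with DESeq2, and its difference between tissues gave 5060 against 2293 with DESeq2.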

Other observations

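Base composition set Malat1 apart from most long noncoding RNAs. Its longest transcript held 17.1% C, lower than all but 4.5% of the 13374 long noncoding genes, where the median was 22.8%. Neat1 held 22.2% C, Miat 25.2%, Snhg11 23.1% and Pvt1 20.7%. The longest run of A was 12 bases in Malat1, 298 bases before the annotated 3′ end, against 9 in Pvt1, 8 in Snhg11, 7 in Neat1 and 4 in Miat, and the median over long noncoding genes was 5. Both features are descriptions of the annotation, and no m5C site is given by these counts.

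The counts of fibroblast m5C WT library 1 that are left after those of the Hom library are taken away sum to 249780. In them Malat1 stood at 4488 CPM, Neat1 at 204, Miat at 16.0, Snhg11 at 124 and Pvt1 at 4.0 (1 count). These are CPM of all the counts left. On that scale Malat1 lay near the other fibroblast m5C libraries and Snhg11 lay within their range, while Neat1, Miat and Pvt1 lay below all of them. The 4 dominant genes held 17.7% of counts in WT library 1 against 5.52% in the Hom library. Levels of the remainder with these genes left out are not given, so the positions hold for this scale only.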
